A study of Homo sapiens with 9 samples.

Results

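MESDC2 and 9 genes of the canonical Wnt pathway were followed on the 9 single-color Agilent arrays of the series. MESDC2 (now named MESD) was chosen by a measured value, the lower signal of its probe upon Lamin B2 Kd than in the controls on these same arrays. The other 9 genes were taken for their place around it: the co-receptors LRP5 and LRP6, beta-catenin (CTNNB1), the transcription factor TCF7, and the target genes AXIN2, NKD1, LGR5, ASCL2 and MYC. These 10 of 31033 gene names on the array were read by 18 of its 50238 probes.

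All arrays carried RNA of DLD1, a cell line of human colorectal cancer, and each array came from an independent culture. The groups were 3 untreated controls, 3 Lamin A/C Kd cultures given siRNA against LMNA and 3 Lamin B2 Kd cultures given siRNA against LMNB2, the last 2 groups at 100 nM for 48 h. Per the methods, 1 siRNA sequence was used per lamin, with a lipid transfection reagent, and no array came from cells given a control siRNA. In a comparison with the controls, transfection and loss of a lamin therefore cannot be told apart. Between the knockdowns, both of which were transfected, other effects of an siRNA sequence and loss of its lamin cannot be told apart. Between 65.6 and 74.1% of the spots on an array were well above background, and none was saturated. Lamin B2 Kd replicate 3 was the only array on the second slide. It often had the lowest value of its group, so several results are also given without it.

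Wnt ligands bind a Frizzled receptor together with LRP5 or LRP6, and the complex stops the destruction complex of APC, AXIN and GSK3 from marking beta-catenin for degradation. Beta-catenin then joins TCF/LEF factors on target genes, several of which feed back on the pathway. MESDC2 is a chaperone of the endoplasmic reticulum that folds LRP5 and LRP6 so that they reach the cell surface. DLD1 cells carry truncated APC, and the pathway is active in them without added ligand.

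The probe sequences are shown because each member's value is only what its probes read. The single MESDC2 probe has 60 bases and starts as below, 5′ to 3′. The capitals mark bases 8 to 28, which are identical to the forward primer of the study's first MESDC2 quantitative PCR pair. The last 14 bases of the probe pair with the reverse primer of that pair, so the 60-base amplicon overlaps the probe from its base 8 to its end. The second forward primer is not contained in the probe.
MESDC2 probe, first 30 bases: aaagttaGGGGTTCTGTTTTGTTTCCTTat
MESDC2-A forward: ggggttctgttttgtttcctt
MESDC2-A reverse: catataacccctcgacaccag
MESDC2-B forward: cagccttttcaatgccaactatg

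The brightest probes of the co-receptors and of 2 target genes start as follows, again 5′ to 3′ as listed on the array, with no part marked.
LRP5 brightest probe, first 30 bases: tggaaggccagcaagtactacctggatttg
LRP6 brightest probe, first 30 bases: cctctgactgcctccaacgtaaaaatgtaa
AXIN2 brightest probe, first 30 bases: ttttgtcttaaaggtcttgagggttgacca
ASCL2 brightest probe, first 30 bases: ctgctggagggacactgctggcaaacggag

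The targeted lamins were read first, as a check of the labels. On the log2 scale relative to the array median, which all levels below use, LMNA on chromosome 1 read 8.79, 8.80 and 8.91 in the controls and 4.84, 5.14 and 5.03 upon Lamin A/C Kd. LMNB2 on chromosome 19 read 5.44, 5.51 and 5.74 in the controls and 3.10, 3.48 and 3.15 upon Lamin B2 Kd. Every knockdown array was below every control for its own target. By limma's moderated test, LMNA fell by 3.83 upon Lamin A/C Kd (adjusted p = 0.000257, standard error 0.22) and LMNB2 fell by 2.32 upon Lamin B2 Kd (standard error 0.14, adjusted p = 0.000517). LMNB2 upon Lamin A/C Kd (−0.36, adjusted p = 0.162) and LMNA upon Lamin B2 Kd (−0.29, adjusted p = 0.421, or −0.00065 without Lamin B2 Kd replicate 3) did not pass the test. LMNB1, which neither siRNA targets, read below every control on all 3 Lamin A/C Kd arrays, as did 25.2% of all genes. It did not pass limma's test after adjustment (−0.99, adjusted p = 0.175). Its Lamin B2 Kd arrays, at 4.31, 5.32 and 3.46, overlapped the controls, at 4.83, 4.81 and 5.38 (−0.64, adjusted p = 0.339). They spread widely (standard deviation 0.93), so the size of this difference depends on single arrays.

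MESDC2, on chromosome 15, was 3.83-fold lower upon Lamin B2 Kd than in the controls and did not differ detectably upon Lamin A/C Kd. The controls read 5.77, 5.85 and 5.88, Lamin A/C Kd 5.69, 5.67 and 5.83, and Lamin B2 Kd 3.91, 3.91 and 3.88. The 3 Lamin B2 Kd arrays lay within a range far narrower than their distance from the other 6 arrays, and the array on the second slide stood with the other 2. The log2 difference was −1.94 (standard error 0.10, n = 3 against 3), which left 26.1% of the control signal and was the 11th largest fall among 22103 genes. Since this fall chose the gene, it is a description and was not tested. The 2-fold line that marks a called gene fell between CYHR1 (−1.00077) and LRIG1 (−0.999919) in that comparison, so MESDC2 lay well beyond it. Upon Lamin A/C Kd, a contrast that did not choose the gene, the difference was −0.11 (95% confidence interval −0.34 to 0.13, adjusted p = 0.622), and the interval excludes a 2-fold change. As these are bulk cultures, fewer cells of a type and less RNA per cell cannot be told apart.

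**Figure D1:**
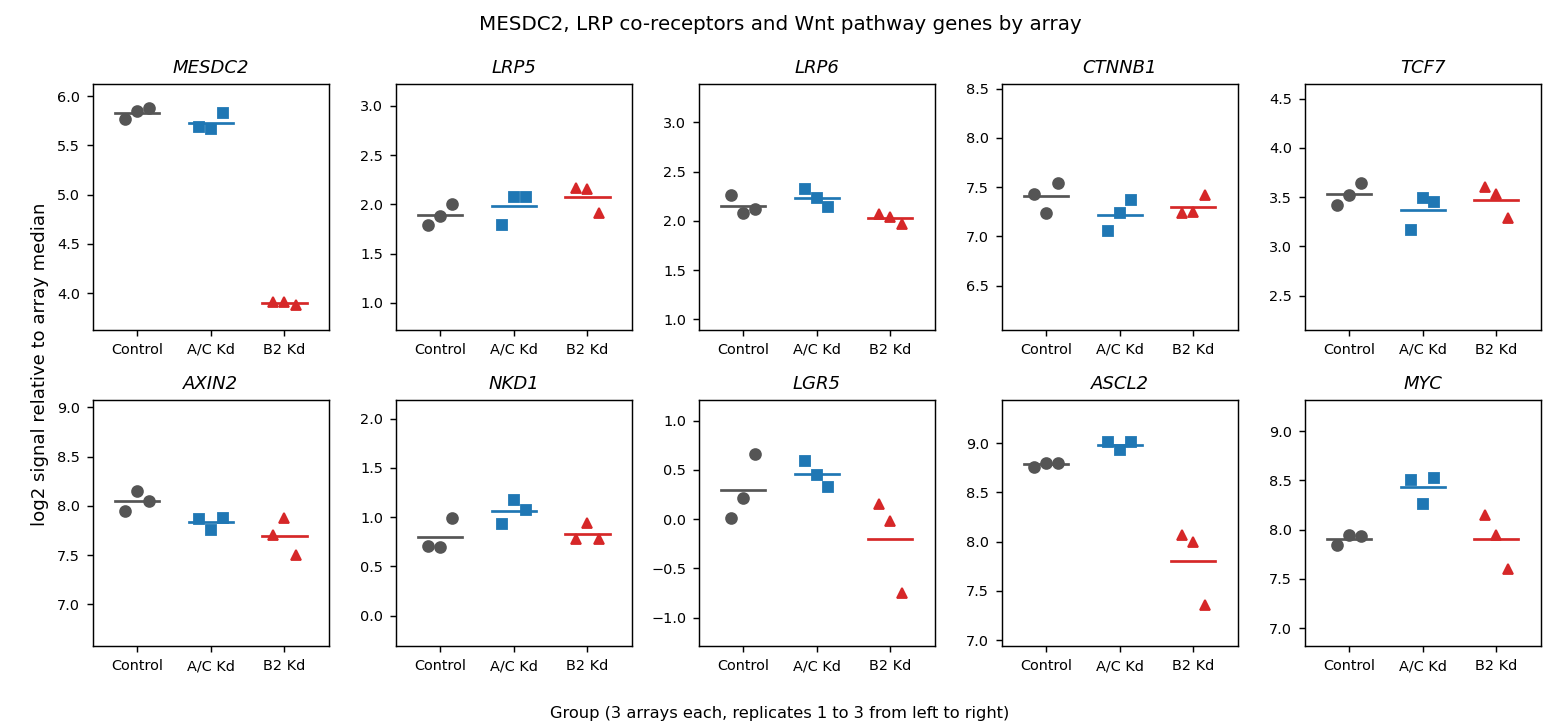
Log2 signal relative to the array median (y axis, each panel with its own range) of the brightest probe of the 10 genes on each of 9 arrays, with 3 arrays per group on the x axis and a horizontal bar at each group mean. The Lamin B2 Kd arrays lie between 3.88 and 3.91 for MESDC2, below all others, and ASCL2 is the only other panel in which all 3 lie more than 0.6 below the lowest control.

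Of the other 9 genes, all of which were tested, 0 were called upon Lamin B2 Kd at a 2-fold change with an unadjusted p under 0.05, against 2.03% of all genes called in that comparison. Without the fold criterion, 2 of the 9 (AXIN2 and ASCL2) had an unadjusted p under 0.05, against 24.4% of all genes. At an adjusted p under 0.05 only ASCL2 passed, as a fall, against 4.29% of all genes that fell by that criterion. For Lamin A/C Kd 0 of the 9 were called by limma, where 2.21% of all genes were, and 1 (MYC) had an unadjusted p under 0.05, where 23.2% of all genes had. Between the knockdowns 1 of the 9 (ASCL2) was called, against 4.19% of all genes, and ASCL2 and MYC had an adjusted p under 0.05, against 15.8%. The median log2 fold change of the 9 was 0.09 upon Lamin A/C Kd and −0.10 upon Lamin B2 Kd, beside −0.04 and −0.14 over all genes tested. These medians shift with the scaling. With arrays scaled to their 75th percentile, the median of all genes upon Lamin B2 Kd is 0.06, and changes near 0 turn sign with it.

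The transcripts of the co-receptors that MESDC2 folds did not pass the test in either knockdown with arrays scaled to their median. LRP5, on chromosome 11, read 1.795, 1.878 and 2.003 in the controls, 1.790, 2.077 and 2.076 upon Lamin A/C Kd and 2.161, 2.151 and 1.917 upon Lamin B2 Kd. LRP6, on chromosome 12, read 2.26, 2.08 and 2.12 in the controls, 2.32, 2.23 and 2.14 upon Lamin A/C Kd and 2.07, 2.04 and 1.97 upon Lamin B2 Kd. The groups overlapped throughout for LRP5. For LRP6 the Lamin B2 Kd arrays lay just below the lowest control, as did those of 27.2% of all genes. The difference upon Lamin B2 Kd was 0.18 for LRP5 (95% confidence interval −0.11 to 0.48, adjusted p = 0.390) and −0.13 for LRP6 (−0.37 to 0.12, adjusted p = 0.462), so neither passed the test and both intervals exclude a 2-fold change. The differences upon Lamin A/C Kd were 0.09 (adjusted p = 0.772) and 0.08 (adjusted p = 0.753). LRP5 upon Lamin B2 Kd passed in 1 of 21 alternatives, the 75th percentile, where its difference was 0.38 (adjusted p = 0.0448). The sign for LRP6 upon Lamin B2 Kd turns under the 75th percentile (0.07) and under quantile normalization (0.03). Protein and its place in the cell were not measured on these arrays.

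CTNNB1, which encodes beta-catenin, and TCF7, one of its DNA-binding partners, did not pass the test in either knockdown. CTNNB1 read 7.43, 7.24 and 7.54 in the controls, 7.06, 7.24 and 7.37 upon Lamin A/C Kd and 7.24, 7.25 and 7.42 upon Lamin B2 Kd, and the groups overlapped. Its differences were −0.18 (adjusted p = 0.473) and −0.10 (adjusted p = 0.626), and those of its other probe −0.31 and −0.10. TCF7 read 3.42, 3.52 and 3.64 in the controls, 3.16, 3.49 and 3.45 upon Lamin A/C Kd and 3.60, 3.53 and 3.29 upon Lamin B2 Kd. The groups overlapped here too, with differences of −0.16 (adjusted p = 0.575) and −0.06 (adjusted p = 0.814). A dimmer TCF7 probe was well above background on 3 control arrays but on only 1 array upon Lamin A/C Kd and on 2 upon Lamin B2 Kd, so no difference is given for it, and the remaining one was too dim to be tested.

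ASCL2 was the 1 target among the 10 genes whose fall passed the test after adjustment. It encodes a transcription factor of intestinal stem cells and is on chromosome 11. It read 8.76, 8.80 and 8.80 in the controls, 9.01, 8.93 and 9.02 upon Lamin A/C Kd and 8.07, 7.99 and 7.36 upon Lamin B2 Kd. All Lamin B2 Kd arrays were below all others, and replicate 3 was the lowest. Of all genes, 27.2% were likewise below every control upon Lamin B2 Kd. ASCL2 fell by 0.98 upon Lamin B2 Kd (standard error 0.18, adjusted p = 0.0224), just short of 2-fold. Without Lamin B2 Kd replicate 3 the difference was −0.76 (adjusted p = 0.00630). The adjusted p went above 0.05 when control replicate 1, 2 or 3 was left out (0.0912, 0.0891 and 0.108), and it lay between 0.00324 and 0.108 over all alternatives. The other ASCL2 probe read 0.57, 0.51 and 0.71 in the controls, 0.66, 0.88 and 0.65 upon Lamin A/C Kd and −0.34, −0.28 and −1.12 upon Lamin B2 Kd, again with Lamin B2 Kd apart from the rest. Its fall of 1.18 (standard error 0.21) passed limma's test at a p of 0.0241 adjusted over all probes and also passed the 2-fold line, as did the average of both probes (−1.08). Upon Lamin A/C Kd the difference was 0.20 (95% confidence interval −0.20 to 0.60, adjusted p = 0.591). The knockdowns differed from each other by 1.18 (standard error 0.18, adjusted p = 0.00300), or by 0.95 without Lamin B2 Kd replicate 3, which is under 2-fold.

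AXIN2, a scaffold of the destruction complex and a feedback target of the pathway, had its lowest mean upon Lamin B2 Kd, a difference that did not pass the test after adjustment. It read 7.95, 8.15 and 8.05 in the controls, 7.87, 7.75 and 7.88 upon Lamin A/C Kd and 7.70, 7.88 and 7.50 upon Lamin B2 Kd. All 6 knockdown arrays were below the lowest control, and both knockdowns overlapped each other. Likewise lower with no overlap were 25.2% of all genes upon Lamin A/C Kd and 27.2% upon Lamin B2 Kd. The difference upon Lamin B2 Kd was −0.36 (95% confidence interval −0.65 to −0.07, adjusted p = 0.136), with −0.38 and −0.39 from the other 2 probes, and upon Lamin A/C Kd −0.22 (adjusted p = 0.362), where 1 of the other probes read 0.09. Without Lamin B2 Kd replicate 3 the difference upon Lamin B2 Kd was −0.26.

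The remaining targets did not pass the test against the controls. NKD1, a feedback inhibitor that binds Dishevelled, read 0.70, 0.70 and 0.99 in the controls, 0.94, 1.18 and 1.07 upon Lamin A/C Kd and 0.78, 0.94 and 0.78 upon Lamin B2 Kd. LGR5, an R-spondin receptor and stem cell marker, read 0.01, 0.21 and 0.66 in the controls, 0.59, 0.45 and 0.33 upon Lamin A/C Kd and 0.15, −0.02 and −0.75 upon Lamin B2 Kd. Both genes overlapped between each knockdown and the controls, and LGR5 spread widely within the controls and within Lamin B2 Kd. The NKD1 differences were 0.26 (adjusted p = 0.261) and 0.03 (adjusted p = 0.882), and those of LGR5 0.16 (adjusted p = 0.783) and −0.50 (95% confidence interval −1.06 to 0.06, adjusted p = 0.244). For LGR5 the value without Lamin B2 Kd replicate 3 was −0.23.

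MYC, a transcription factor that drives growth, read above the controls upon Lamin A/C Kd on its brightest probe, without passing the test after adjustment, but not on its other tested probe. The brightest probe read 7.85, 7.94 and 7.94 in the controls, 8.50, 8.26 and 8.52 upon Lamin A/C Kd and 8.15, 7.95 and 7.60 upon Lamin B2 Kd. All 3 Lamin A/C Kd arrays were above the controls, as were those of 15.6% of all genes, while Lamin B2 Kd straddled them. The difference was 0.52 upon Lamin A/C Kd (adjusted p = 0.0719, standard error 0.15) and −0.01 upon Lamin B2 Kd (adjusted p = 0.978). Leaving Lamin B2 Kd replicate 3 out of the fit, whose spread all groups share, gave an adjusted p of 0.0122 for the same difference upon Lamin A/C Kd. Over 21 alternatives the adjusted p for Lamin A/C Kd lay between 0.00431 and 0.220, above 0.05 in 15, and the difference was as low as 0.27. The knockdowns differed by 0.53 (adjusted p = 0.0477), or by 0.38 without Lamin B2 Kd replicate 3 (adjusted p = 0.0596). This adjusted p was above 0.05 under several alternatives, up to 0.147 with 1 array left out and 0.269 with the mean of both probes. The other tested probe gave 0.02 upon Lamin A/C Kd and 0.15 upon Lamin B2 Kd, and −0.13 between the knockdowns.

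**Figure D2:**
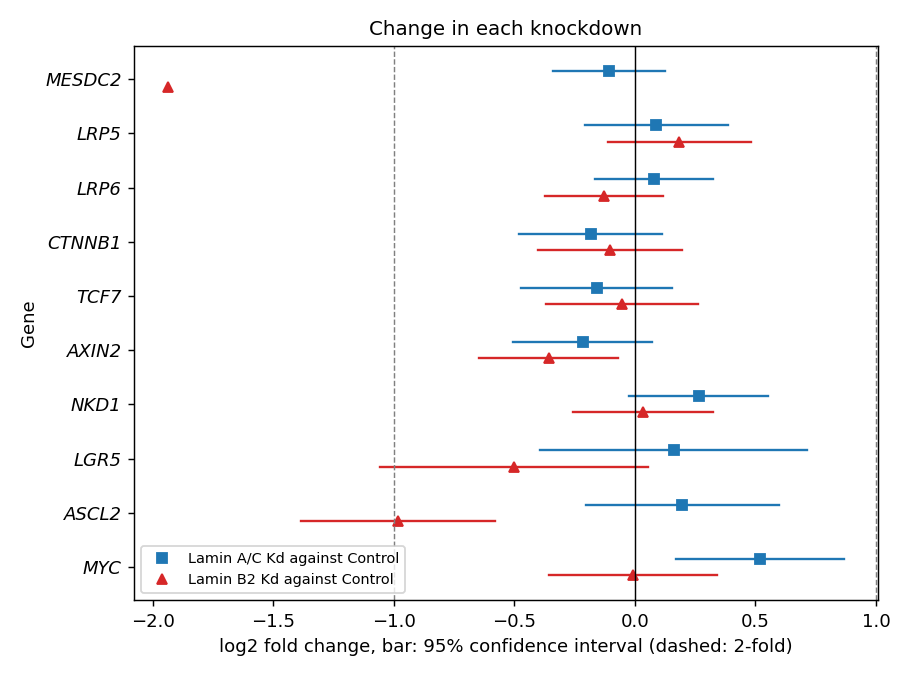
Log2 fold change against the controls (x axis, points with 95% confidence intervals, dashed lines at 2-fold) of the brightest probe of each of the 10 genes (y axis) upon Lamin A/C Kd (squares) and Lamin B2 Kd (triangles). MESDC2 upon Lamin B2 Kd (−1.94) has no interval because it chose the gene, and ASCL2 upon Lamin B2 Kd (−0.98) is the point next farthest from 0.

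The wider pathway was read through lists of genes by role, of which only the brightest probe of each gene is counted. Among other known Wnt targets of colorectal cells, 20 of 23 were tested. With Lamin B2 depleted, 2 were called lower (EPHB2 and APCDD1) and 0 higher, beside 1.21% and 0.814% of all genes, and 6 had fallen at an adjusted p under 0.05, beside 4.29%. With Lamin A/C depleted, 2 were called higher (APCDD1 and PROX1) and 0 lower, beside 0.920% of all genes called higher, and 4 had risen at an adjusted p under 0.05, beside 3.09%. The list median was −0.31 upon Lamin B2 Kd and 0.12 upon Lamin A/C Kd, beside −0.14 and −0.04 over all genes. Both knockdowns share their controls. Directly compared, 6 were called higher upon Lamin A/C Kd than upon Lamin B2 Kd and 0 lower, beside 2.79% and 1.39% of all genes. At an adjusted p under 0.05, 9 were higher and 3 lower in this comparison, beside 11.3% and 4.54% of all genes. Without Lamin B2 Kd replicate 3 it called 4 higher, beside 1.95%. Without Lamin B2 Kd replicate 3, 2 targets were called lower upon Lamin B2 Kd, beside 0.513% of all genes, and 6 had fallen at an adjusted p under 0.05, beside 4.40%, although the list median was then −0.08 beside −0.06 over all genes. For Lamin A/C Kd that fit gave 8 rises and 3 falls at an adjusted p under 0.05, beside 7.37% and 13.4% of all genes.

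APCDD1, a membrane inhibitor of Wnt signaling, moved in opposite directions in the knockdowns. It read 2.91, 2.89 and 3.17 in the controls, 4.63, 4.64 and 4.43 upon Lamin A/C Kd and 1.90, 1.84 and 1.52 upon Lamin B2 Kd. No arrays of different groups overlapped. Without overlap with the controls, 15.6% of all genes were higher upon Lamin A/C Kd and 27.2% lower upon Lamin B2 Kd. APCDD1 rose by 1.58 upon Lamin A/C Kd (adjusted p = 0.000915, standard error 0.14) and fell by 1.23 upon Lamin B2 Kd (standard error 0.14, adjusted p = 0.00679), a difference between the knockdowns of 2.82 (adjusted p = 4.25e-05). It rests on 1 probe. In the authors' table the value of that row joins 5 probes, 4 of which do not carry the gene's name on the array. Neither change passed there, at 0.25 upon Lamin A/C Kd (adjusted p = 0.569) and 0.18 upon Lamin B2 Kd (adjusted p = 0.582), so the fall turns sign in that table. Under the other alternatives both changes kept an adjusted p under 0.05.

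EPHB2, a receptor that sorts cells along the crypt, and BAMBI, a membrane pseudoreceptor of the TGF-beta family, had the same order of groups as APCDD1. EPHB2 read 4.10, 4.15 and 4.38 in the controls, 5.06, 5.07 and 4.80 upon Lamin A/C Kd and 3.08, 3.26 and 2.57 upon Lamin B2 Kd. It fell by 1.24 upon Lamin B2 Kd (adjusted p = 0.0121) and rose by 0.77 upon Lamin A/C Kd (adjusted p = 0.0360). BAMBI read 7.85, 7.88 and 7.98 in the controls, 8.70, 8.66 and 8.62 upon Lamin A/C Kd and 7.38, 7.42 and 6.87 upon Lamin B2 Kd. The 3 groups did not overlap for either gene. Against the controls alone, 15.6% of all genes were likewise higher upon Lamin A/C Kd and 27.2% lower upon Lamin B2 Kd. BAMBI rose by 0.76 upon Lamin A/C Kd (adjusted p = 0.0181) and fell by 0.68 upon Lamin B2 Kd (adjusted p = 0.0430), and the knockdowns differed by 2.01 for EPHB2 (adjusted p = 0.000383) and 1.44 for BAMBI (adjusted p = 0.000673). The falls and rises against the controls were less firm. Over 21 alternatives the adjusted p of EPHB2 reached 0.0769 upon Lamin B2 Kd and 0.139 upon Lamin A/C Kd, above 0.05 in 4 and 9 of them. That of BAMBI reached 0.177 and 0.0840, above 0.05 in 11 and 8.

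A further 3 targets, singled out like BAMBI after their values were seen, fell upon Lamin B2 Kd. They were SP5, a transcription factor (−0.76, adjusted p = 0.0320), TNFRSF19, a receptor of the TNF family (−0.70, adjusted p = 0.0333), and LEF1, a DNA-binding partner of beta-catenin (−0.58, adjusted p = 0.0302). Upon Lamin A/C Kd they stood at 0.29, 0.37 and −0.03 and did not pass, and the differences between the knockdowns did (1.06, 1.07 and 0.55, adjusted p at most 0.0130). Over the 21 alternatives the adjusted p of these falls reached 0.144 for each of the 3 genes, above 0.05 in 10 for SP5 and TNFRSF19 and 11 for LEF1. The dimmest of 3 SP5 probes gave 0.22 upon Lamin B2 Kd, against −0.69 for the remaining one. PROX1, a homeobox factor of colorectal tumors, read −0.43, 0.38 and −0.10 in the controls, 1.22, 1.45 and 1.10 upon Lamin A/C Kd and 0.26, −0.13 and −0.59 upon Lamin B2 Kd. It rose by 1.31 upon Lamin A/C Kd (adjusted p = 0.0157), above every other array, where 15.6% of all genes were above the controls. Its other probe gave 1.18, and normexp background correction gave 0.80. The adjusted p of PROX1 upon Lamin A/C Kd reached 0.0706 over the alternatives, above 0.05 in 4. The PROX1 difference upon Lamin B2 Kd was −0.10 (adjusted p = 0.814), or 0.12 without Lamin B2 Kd replicate 3.

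**Figure D3:**
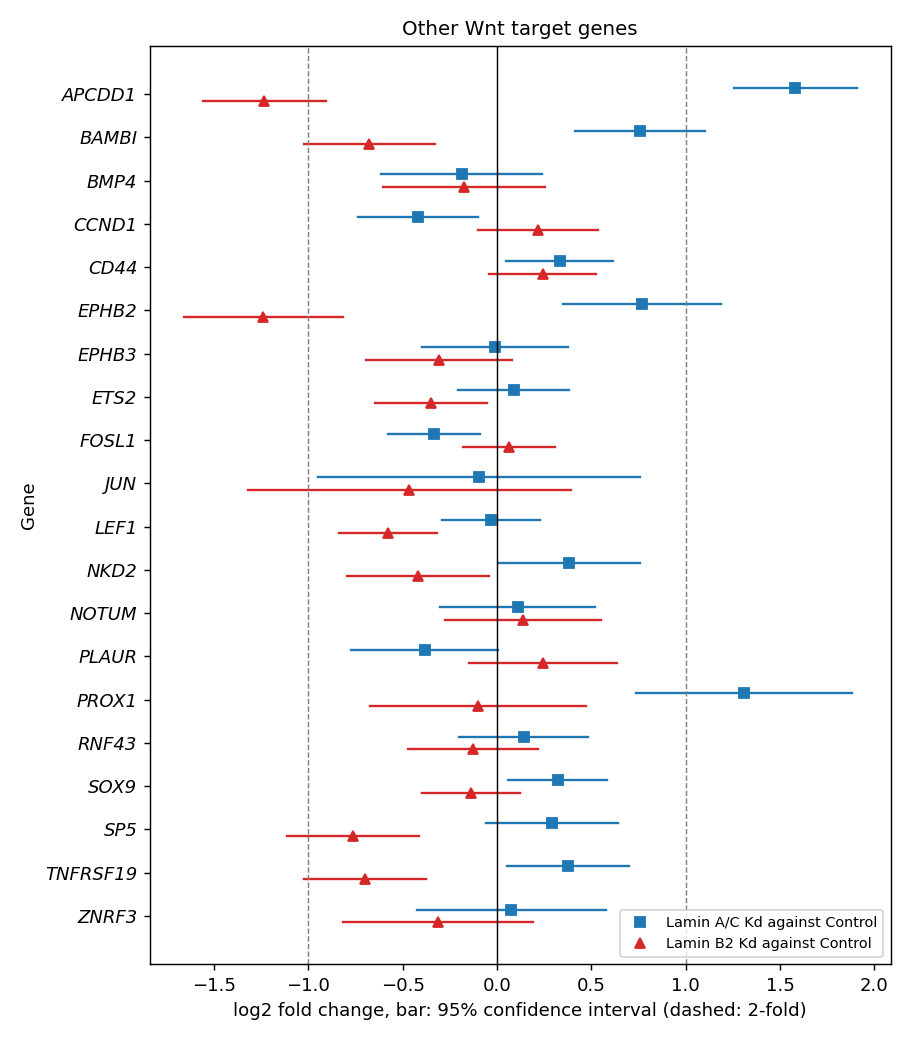
Log2 fold change against the controls (x axis, points with 95% confidence intervals, dashed lines at 2-fold) of the 20 tested genes of the Wnt target list (y axis) upon Lamin A/C Kd (squares) and Lamin B2 Kd (triangles). APCDD1, EPHB2, BAMBI, TNFRSF19 and NKD2 lie above 0 for Lamin A/C Kd and below it for Lamin B2 Kd with both intervals excluding 0, though TNFRSF19 upon Lamin A/C Kd and NKD2 in both did not pass at an adjusted p under 0.05.

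Of the Wnt ligands 11 of 19 were tested, and 2 were called, WNT5A upon Lamin A/C Kd and WNT11 upon Lamin B2 Kd, where 2.21% and 2.03% of all genes were. WNT5A, a ligand best known for beta-catenin-independent signaling, read 1.52, 1.55 and 1.97 in the controls, 3.21, 3.21 and 3.16 upon Lamin A/C Kd and 1.76, 1.98 and 1.85 upon Lamin B2 Kd. It rose by 1.51 upon Lamin A/C Kd (adjusted p = 0.000973, standard error 0.14), above all other arrays, where 15.6% of all genes were above the controls. Upon Lamin B2 Kd it was at 0.18 (adjusted p = 0.429). WNT11, another ligand of that kind, read 0.64, 0.37 and 0.45 in the controls, 1.43, 1.59 and 1.26 upon Lamin A/C Kd and −0.95, −0.64 and −1.08 upon Lamin B2 Kd. The 3 groups did not overlap on this probe. Likewise apart from the controls were 15.6% of all genes (higher upon Lamin A/C Kd) and 27.2% (lower upon Lamin B2 Kd). WNT11 rose by 0.94 upon Lamin A/C Kd (adjusted p = 0.00822) and fell by 1.37 upon Lamin B2 Kd (adjusted p = 0.00562). Its other probe disagreed upon Lamin B2 Kd, at 0.38, and was at 0.49 upon Lamin A/C Kd. Averaged over both probes the WNT11 difference upon Lamin B2 Kd was −0.50 (adjusted p = 0.0724), which is not called. WNT3, a canonical ligand that was singled out after its value was seen, fell by 0.84 upon Lamin B2 Kd (adjusted p = 0.0470), with an adjusted p above 0.05 in 14 of 21 alternatives, up to 0.193.

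**Figure D4:**
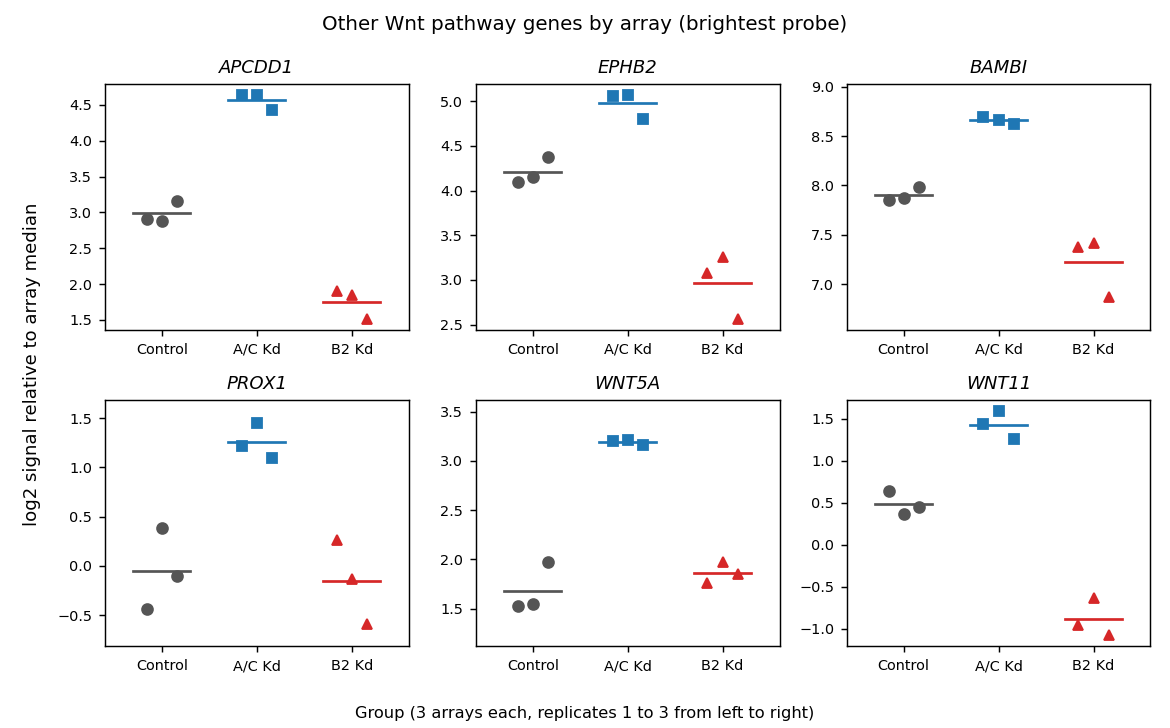
Log2 signal relative to the array median (y axis, each panel with its own range) of the brightest probe of 6 Wnt target and ligand genes on each of 9 arrays, by group on the x axis, with a horizontal bar at each group mean. In all 6 panels the 3 Lamin A/C Kd arrays are the highest, and for APCDD1, EPHB2, BAMBI and WNT11 the 3 Lamin B2 Kd arrays are the lowest.

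Among the receptors, secretion genes and inhibitors, FZD6 and APCDD1 were called. Of 13 tested Frizzled and other Wnt receptors, 1 was called upon Lamin B2 Kd and 0 upon Lamin A/C Kd, where 2.03% and 2.21% of all genes were. At an unadjusted p under 0.05 there were 5 upon Lamin B2 Kd, all lower, and 4 upon Lamin A/C Kd, 1 higher and 3 lower, beside 24.4% and 23.2% of all genes. The called gene was FZD6, a Frizzled receptor, at −1.06 (adjusted p = 0.0545), or −0.80 without Lamin B2 Kd replicate 3. Among 10 tested members of the LDL receptor family, to which LRP5 and LRP6 belong, and the related chaperone LRPAP1, 0 were called. The shares of all genes called were 2.03% upon Lamin B2 Kd and 2.21% upon Lamin A/C Kd. In each knockdown 1 of the 10 had an unadjusted p under 0.05, beside 24.4% and 23.2% of all genes. LRP12 had fallen by 0.60 upon Lamin A/C Kd (adjusted p = 0.0237, up to 0.317 over the alternatives), but its other tested probe was at 0.07. LRP4 was at −0.64 upon Lamin B2 Kd (adjusted p = 0.0517). The Wnt secretion genes WLS (−0.56, adjusted p = 0.0738) and PORCN (−0.36, adjusted p = 0.187, or −0.19 without Lamin B2 Kd replicate 3) did not pass upon Lamin B2 Kd, nor upon Lamin A/C Kd (−0.15 and −0.07). Among 11 tested secreted and membrane inhibitors only APCDD1, described above, was called. It was called in both knockdowns, where 2.03% (Lamin B2 Kd) and 2.21% (Lamin A/C Kd) of all genes were. Of 6 R-spondins and their receptors, 4 were tested upon Lamin B2 Kd and 3 upon Lamin A/C Kd. On their brightest probes 0 had an unadjusted p under 0.05 by limma, where 24.4% and 23.2% of all genes had. RSPO3 was at 0.34 upon Lamin B2 Kd and −0.20 upon Lamin A/C Kd, and LGR6 at 0.08 and 0.17. The dimmer LGR6 probe was well above background on only 1 of 3 Lamin B2 Kd arrays, so no difference is given for it there. Its difference upon Lamin A/C Kd, with all 3 arrays and all controls above background, was 0.81 (adjusted p = 0.253).

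Inside the cell, 0 of 22 genes of Dishevelled and the destruction complex were called in either knockdown. Of all genes, 2.03% were called upon Lamin B2 Kd and 2.21% upon Lamin A/C Kd. At an unadjusted p under 0.05 there were 4 of the 22, all lower, upon Lamin B2 Kd. Upon Lamin A/C Kd there were 7 (4 higher and 3 lower), where the shares of all genes were 24.4% and 23.2%. AMER1, which brings the complex to the membrane, rose by 0.67 upon Lamin A/C Kd (adjusted p = 0.0386, up to 0.145 over the alternatives), with 0.75 and 0.87 from its other probes. AXIN1, its scaffold, was at −0.72 upon Lamin B2 Kd (adjusted p = 0.259), and leaving out 1 array moved it to −0.30 (replicate 3) or −1.10 (replicate 2). The fit without replicate 2 called AXIN1, although its adjusted p was above 0.05 in all 21 alternatives. Of 12 tested nuclear partners of beta-catenin, 0 were called in either knockdown, again beside 2.03% and 2.21% of all genes. Upon Lamin B2 Kd 4 had fallen and 1 had risen at an adjusted p under 0.05, beside 4.29% and 0.516% of all genes. LEF1 is one of those 4 and is also counted among the 6 Wnt targets that fell. Among the others were TLE2, a corepressor (−0.82, adjusted p = 0.0413), and CBY1, an antagonist of beta-catenin (−0.81, adjusted p = 0.0228). Over the 21 alternatives their adjusted p was above 0.05 in 15 for TLE2 and 7 for CBY1. The list median upon Lamin B2 Kd was −0.29, beside −0.14 over all genes, or −0.09 beside −0.06 without Lamin B2 Kd replicate 3. Among 11 ER chaperones, the compartment in which MESDC2 works, 0 were called in either knockdown, beside 2.03% and 2.21% of all genes. An unadjusted p under 0.05 was seen for 4 of them upon Lamin B2 Kd and 1 upon Lamin A/C Kd, beside 24.4% and 23.2% of all genes. Their median upon Lamin B2 Kd was −0.31, beside −0.14 over all genes, or −0.21 beside −0.06 without Lamin B2 Kd replicate 3. PDIA4 was at −0.71 (adjusted p = 0.0846) and SDF2L1 at −0.59 (adjusted p = 0.224), or at −0.47 and −0.24 without that array.

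The genes whose pattern over the 9 arrays was most like that of MESDC2 were sought among 20215 genes, by the root mean square difference of log2 values centered on the control mean. They were UBAC1 (0.114), KRCC1 (0.191), TOMM22 (0.205), the transcript CA438802 (0.213) and C1orf144 (0.240). UBAC1 stood at −1.99, −1.78 and −2.20 upon Lamin B2 Kd relative to its control mean, and MESDC2 at −1.92, −1.93 and −1.96. Their means upon Lamin A/C Kd were −0.10 for UBAC1 and between −0.33 and 0.25 for the other 4. The search itself picked genes that are low upon Lamin B2 Kd, so this is a description.

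**Figure D5:**
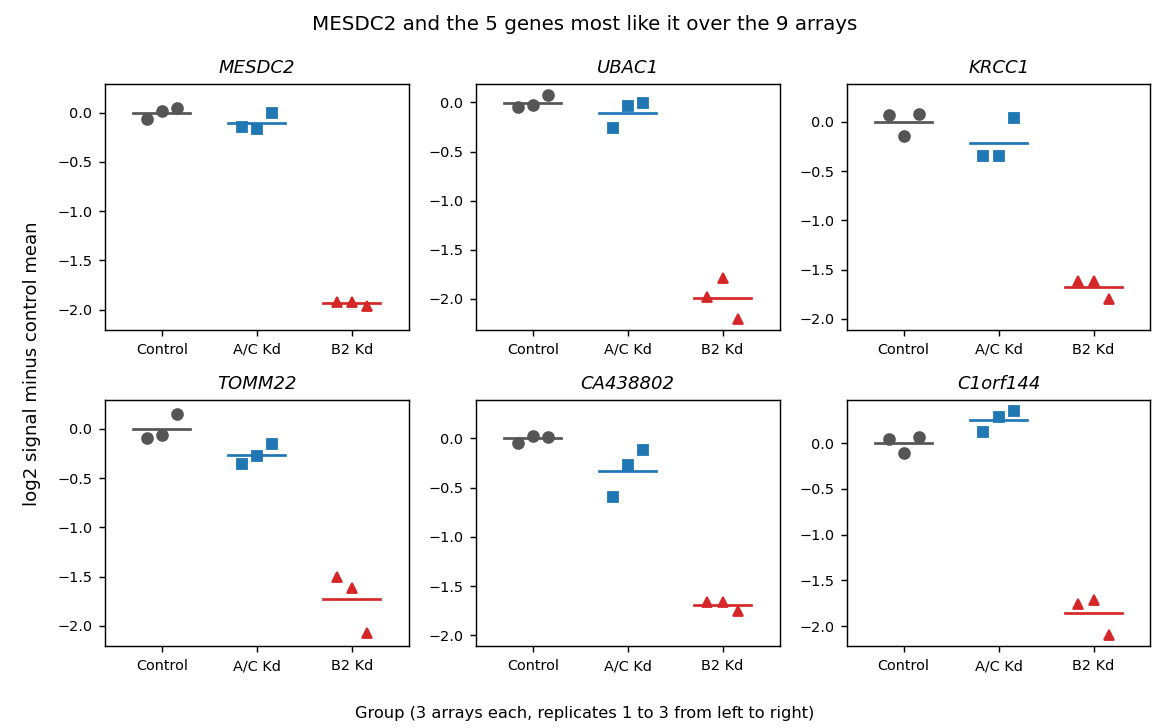
Log2 signal minus the control mean of the same gene (y axis, each panel with its own range) for MESDC2 and the 5 genes most like it on each of 9 arrays, by group on the x axis, with a horizontal bar at each group mean. In each panel the 3 Lamin B2 Kd arrays lie between −2.20 and −1.51, apart from the other 6 arrays.

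The brightest probes of the neighbors of MESDC2 on chromosome 15 did not pass the test upon Lamin B2 Kd. On the side of lower coordinates, KIAA1199 (now CEMIP), which acts in hyaluronan breakdown, rose by 0.73 upon Lamin A/C Kd (adjusted p = 0.0136, above 0.05 in 4 of 21 alternatives, up to 0.0632) and was at −0.53 upon Lamin B2 Kd (adjusted p = 0.0592). A dimmer KIAA1199 probe gave −0.48 there (limma's p adjusted over all probes, 0.0405). FAM108C1 was at 0.00 upon Lamin B2 Kd (adjusted p = 0.982) and ARNT2, a transcription factor, at −0.40 (adjusted p = 0.0788). On the other side MESDC1 (now TLNRD1) was at −0.03 upon Lamin B2 Kd (adjusted p = 0.869) and −0.45 upon Lamin A/C Kd (adjusted p = 0.0519). C15orf26 and IL16 were too dim to be tested.

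The arrays were also read for the cell type on the label. Between 9 and 10 of 10 colon epithelial markers were well above background on every array, CDH1, KRT8 and KRT18 among those above it on all 9. Other markers of the list were dim. KRT20 read between −1.84 and −0.38 and LGALS4 between −0.49 and 0.55. CDX1 read between −2.83 and −0.13 and was well above background on 7 of 9 arrays, while CDX2 read between 3.54 and 4.35. Of the 10 markers only VIL1, which encodes villin of the brush border, was called, where 2.03% of all genes were. It was at −1.06 upon Lamin B2 Kd (adjusted p = 0.0311, up to 0.141 over the alternatives), or −0.87 without Lamin B2 Kd replicate 3. Its other probe, above background on all arrays, gave −0.66 upon Lamin B2 Kd (limma's p adjusted over all probes, 0.201), short of 2-fold. The brightest VIL1 probe was at −0.58 upon Lamin A/C Kd (adjusted p = 0.132) and the other at −0.84 (p adjusted over all probes, 0.101). Of 5 fibroblast markers between 1 and 3 were above background, DCN and collagen genes among them, and LUM was above it on 0 of 9 arrays. Of 6 leukocyte and endothelial markers between 4 and 6 were above background. The summed linear signal, relative to the array median, was between 7124 and 9670 over the epithelial probes, between 0.790 and 1.66 over the fibroblast probes and between 4.55 and 6.81 over the leukocyte and endothelial probes, where KRT18, DCN or a collagen gene, and CD14 gave the brightest probe. Probes differ in how brightly they read a transcript, so these sums describe signal on an array and do not compare the amounts of the transcripts. CD3E, a T cell gene, was not called in either knockdown, and the part of any of these markers in the results above was not tested.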

How the data were processed

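The authors hybridized Cy3-labeled RNA to Agilent single-color arrays and deposited, per array, the Feature Extraction intensity after background subtraction and spatial detrending (version 10.7.3.1 in the file headers, 10.5 in the submitters' processing notes). A second file from the authors holds deposited log2 values of all arrays, shifted by the 50th percentile and centered per row, in which 20266 of 50238 rows are blank and 11504 join several probes. It was tried as an alternative. Its Lamin B2 Kd set numbers differ from the sample titles, so its columns were used by group.

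The log2 intensity minus the array's 50th percentile was averaged over each probe's spots, outliers left out. A probe was tested where at least 0.5 of its spots passed the software's background mark on every one of the 3 arrays in 1 or both of the compared groups. limma 3.58.1 (R 4.3.3, with version 1.17.8 of data.table) fitted all 9 arrays without a block. The methods do not name the array test. A gene is its brightest probe. A call needs 2-fold and an unadjusted p under 0.05, and adjusted p values are Benjamini-Hochberg over all genes tested. Spread is between independent cultures, and 3 arrays per group limit precision. Replicates correlated at 0.968 to 0.991 and none were identical.

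The members and gene lists were chosen with earlier results of these data known. Besides the members and lamins, the genes named are, per list, those called in either knockdown (at most 5) or the 2 with the largest change, the 5 genes most like MESDC2 and 3 genes on each side of it, apart from a gene not reported here. Names, chromosomes and order come from a RefSeq table of GRCh38.p14, in which 61.4% of array names matched. The array was designed on another build, so positions are not given. On simulated data, 98% and 99% of 200 probes changed by 1.5 on the log2 scale were called for the Lamin A/C and the Lamin B2 contrast. At an adjusted p under 0.05, 80% and 81% of them passed. Among 33042 and 33443 probes in all, 144 and 121 unchanged ones were called. The simulated noise had 1 spread per probe for all groups and no slide effect, so it does not cover a group that spreads more widely.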

Additional observations from a re-analysis of the deposited data

How the results depend on the processing

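Upon Lamin A/C Kd 0 members were called under every alternative run. The other counts include MESDC2, whose low values upon Lamin B2 Kd chose it, so in each of them 1 is fixed by the choice and only the rest is a result. Upon Lamin B2 Kd the count of 1 (MESDC2 alone) became 2 with an adjusted p under 0.05 and no fold criterion, at 1.5-fold and with the mean of all tested probes, beside 4.81%, 9.10% and 1.92% of all genes, each time by adding ASCL2. It was 1 to 2 with 1 array left out (2 without Lamin B2 Kd replicate 1 or 2, beside 4.01% and 4.44%). Between the knockdowns the count of 2 (MESDC2 and ASCL2, beside 4.19%) became 3 with an adjusted p under 0.05 and no fold criterion (MYC added, beside 15.8%) and at 1.5-fold (LGR5 added, beside 14.4%). It became 1 with the slide as a block and with array weights (beside 3.47% and 3.40%), and was 1 to 2 with 1 array left out (1 without Lamin B2 Kd replicate 3, beside 3.64%), since ASCL2 then fell just under 2-fold. The MESDC2 difference upon Lamin B2 Kd, a description with no test, lay between −1.97 and −1.71.

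Of 630 comparisons of a member's value with an alternative, 598 kept direction and side of the threshold, 3 gained a call, 3 lost one and 26 changed sign, all of them uncalled values. The 598 include MESDC2 upon Lamin B2 Kd and between the knockdowns, where it was called under every alternative. The choice of the gene fixed those, so only the rest is a result. Upon Lamin B2 Kd the 75th percentile gave MYC 0.19, CTNNB1 0.093, LRP6 0.068 and TCF7 0.14, and quantile normalization 0.19, 0.13, 0.032 and 0.15. MYC was also 0.01 in the authors' table, 0.14 with the slide as a block, 0.11 with array weights and 0.072 as the mean of its probes, and TCF7 0.038 with the slide as a block and 0.040 with array weights. With 1 array left out, MYC ranged from −0.13 to 0.14, NKD1 from −0.021 to 0.13 and TCF7 from −0.12 to 0.038. Upon Lamin A/C Kd MESDC2 was 0.022 with quantile normalization and LRP6 −0.017 in the authors' table. Between the knockdowns, with 1 array left out, LRP5 ranged from −0.17 to 0.00035 and CTNNB1 from −0.15 to 0.0000962. The percentile shifts differ by construction in where they center the arrays, and the cause of the other sign changes was not tested.

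Same-numbered arrays did not deviate together (correlations −0.0856 to 0.148, against −0.122 to 0.146 for other pairs), so the numbers were not taken to pair the cultures. With the replicate block the counts were 0, 1 and 2, as without it, and ASCL2 upon Lamin B2 Kd had an adjusted p of 0.0589. ASCL2 also missed 0.05 with the authors' table (0.0652), no detection filter (0.0600) and only the 2 groups compared (0.0949). Among the list genes, WNT11 upon Lamin B2 Kd was −0.73 with normexp and −0.60 in the authors' table and −0.50 with the mean of its probes, and FZD6 was −0.57 with normexp. VIL1 stayed between −1.0 and −0.85 under the alternatives that ended its call. Counts and medians of the lists under other scalings and without Lamin B2 Kd replicate 3 were added after the data were seen. Under those, 6 Wnt targets fell upon Lamin B2 Kd with the 75th percentile, quantile normalization, normexp and the slide block, beside 3.14%, 3.45%, 10.7% and 4.41% of all genes, and 1 with the authors' table, which joins probes, beside 0.603%. Dim probes limit what can be seen for 8 of 19 ligands, which were not tested.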

Other observations

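A few probes outside the comparisons carried signal near background. The third MYC probe was well above background on 0 control arrays, at −3.98, −2.49 and −3.29, on 1 Lamin A/C Kd array (−1.03, with −2.05 and −2.13 on the others) and on 2 Lamin B2 Kd arrays (0.87 and −1.31, with −3.11 on the other). Its values spread more widely within a group than those of the other MYC probes, and it was not tested. A dim probe of APC2, a neural relative of APC, was well above background on 0 of 3 Lamin A/C Kd arrays. It was at least 1.76-fold lower on them than in the controls, taking each dim array at the higher of its own signal and the lowest signal well above background. This probe met the detection rule through the controls, where it is higher, so the value is a description. It is 1 of 4 APC2 probes, and the brightest was not called in either knockdown.

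Upon Lamin A/C Kd, FRAT2, a GSK3-binding protein, rose by 0.62 (adjusted p = 0.0175), and BCL9, a nuclear cofactor of beta-catenin, rose in both knockdowns, with 0.41 for Lamin A/C Kd (adjusted p = 0.0458) and 0.61 for Lamin B2 Kd (adjusted p = 0.0199). DVL2, a Dishevelled protein, fell by 0.57 upon Lamin B2 Kd (adjusted p = 0.0263), and CTNNBIP1, which blocks the binding of TCF to beta-catenin, fell by 0.71 (adjusted p = 0.0396). These genes were singled out after their values were seen, and none reached 2-fold. Over 21 alternatives the highest adjusted p was 0.0858 for FRAT2, 0.173 and 0.0930 for BCL9, 0.125 for DVL2 and 0.173 for CTNNBIP1.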
